A study of Mus musculus with 12 samples.

Results

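The Cyp3a family of cytochrome P450 enzymes was examined in the livers of mice given valproic acid with or without obeticholic acid. It was represented by 8 genes chosen by symbol, Cyp3a11, Cyp3a13, Cyp3a16, Cyp3a25, Cyp3a41a, Cyp3a41b, Cyp3a44 and Cyp3a59, of 34986 genes in the authors' table. All 8 passed the filter on low values, which asked for 6 or more libraries with a normalized count of 1 or above, as did 19006 genes in all.

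RNA was sequenced from the livers of 12 mice, all C57BL/6 females 16 weeks old, with 6 in each group. The VPA_OCA group received valproic acid (VPA), used against epilepsy and known to harm the liver in some patients, together with obeticholic acid (OCA), a modified bile acid and agonist of the bile acid receptor FXR. The VPA group received VPA alone, so VPA is common to both groups, and mice that had no VPA are not analysed here. Doses and durations are not given in the labels, and the comparison sets the addition of the FXR agonist against VPA alone. Nothing in the labels says how the mice were housed or handled together, so each p-value measures the spread between these animals' libraries.

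CYP3A enzymes are membrane-bound monooxygenases of the endoplasmic reticulum that oxidise a wide range of drugs, steroid hormones and bile acids, using electrons passed on by P450 reductase. In mouse liver Cyp3a11 is the classical target of the pregnane X receptor (PXR, Nr1i2), which senses drugs and toxic bile acids. Cyp3a41 and Cyp3a44 are known as female-predominant forms whose level depends on growth hormone, Cyp3a16 as a form of early life that females can keep, and Cyp3a13 as a form of intestine as well as liver.

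The values are the authors' normalized counts, which summed to between 20236900 and 22087711 per library, with estimated depths of 17879222 to 37699449 reads. Hepatocyte markers were high throughout, with the 10 listed genes summing to 2152320 to 3412674 in VPA_OCA and 2386352 to 3409740 in VPA libraries. Libraries differed by replicate number: mitochondrial transcripts took 9.09% to 11.7% of the total in numbers 1 to 3 of either group and 5.84% to 7.51% in numbers 4 to 6. In whole-liver RNA, fewer cells of a type and less RNA per cell cannot be told apart. VPA replicate 5 stood apart from all other libraries in 4 members, so values are given with and without it.

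The members lie on chromosome 5 (GRCm38). In order along the chromosome, Cyp3a16 (ENSMUSG00000038656, 145436309 to 145469723), Cyp3a41b (ENSMUSG00000075552, 145558664 to 145584730), Cyp3a41a (ENSMUSG00000075551, 145694049 to 145720136) and Cyp3a44 (ENSMUSG00000054417, 145773983 to 145805874) are neighbours on the minus strand. Cyp3a11 (ENSMUSG00000056035, 145854426 to 145879964) and Cyp3a25 (ENSMUSG00000029630, 145977194 to 146009618) follow on the same strand. Cyp3a59 (ENSMUSG00000061292, 146079257 to 146113287) closes the cluster on the plus strand. Cyp3a13 (ENSMUSG00000029727, 137892932 to 137921619, minus strand) lies apart from the others. A ninth row of the table whose symbol starts with Cyp3a, Cyp3a57, averaged 6.33 ± 4.96 normalized counts in VPA_OCA and 9.36 ± 4.64 in VPA (SD, n = 6 each) and is not described further.

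The promoter windows of 5 members are shown for description. The 4 neighbouring genes that were low together in VPA replicate 5 have closely similar starts, while Cyp3a11, beside them, is less alike. Whether this bears on their values was not tested. Each window is RefSeq sequence of GRCm38.p6, minus strand, 5′ to 3′, from 250 bases before to 50 bases after the start used for the gene. For Cyp3a11 that start is not the outer end of the gene given above (145879964), which lies further upstream. Capitals mark bases that differ from Cyp3a41a in a pairwise alignment or that have no base of Cyp3a41a opposite them. The windows are chr5:145720087-145720386 for Cyp3a41a, chr5:145584681-145584980 for Cyp3a41b, chr5:145805825-145806124 for Cyp3a44, chr5:145469674-145469973 for Cyp3a16 and chr5:145879805-145880104 for Cyp3a11.
Cyp3a41a: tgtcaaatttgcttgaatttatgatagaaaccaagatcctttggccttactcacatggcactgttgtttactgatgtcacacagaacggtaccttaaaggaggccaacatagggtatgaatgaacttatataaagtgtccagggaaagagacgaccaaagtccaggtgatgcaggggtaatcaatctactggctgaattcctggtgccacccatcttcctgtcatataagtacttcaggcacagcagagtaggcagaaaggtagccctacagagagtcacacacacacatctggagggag
Cyp3a41b: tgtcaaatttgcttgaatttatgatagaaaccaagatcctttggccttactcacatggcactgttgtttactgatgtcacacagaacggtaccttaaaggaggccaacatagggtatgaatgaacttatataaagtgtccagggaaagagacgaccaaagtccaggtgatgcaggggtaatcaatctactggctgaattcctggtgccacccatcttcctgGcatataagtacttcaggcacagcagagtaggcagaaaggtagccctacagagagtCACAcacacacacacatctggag
Cyp3a44: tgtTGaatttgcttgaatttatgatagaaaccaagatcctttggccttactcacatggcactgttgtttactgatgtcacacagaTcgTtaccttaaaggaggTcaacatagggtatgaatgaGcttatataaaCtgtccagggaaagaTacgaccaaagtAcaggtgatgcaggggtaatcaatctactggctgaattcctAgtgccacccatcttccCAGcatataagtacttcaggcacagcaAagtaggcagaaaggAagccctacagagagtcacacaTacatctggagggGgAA
Cyp3a16: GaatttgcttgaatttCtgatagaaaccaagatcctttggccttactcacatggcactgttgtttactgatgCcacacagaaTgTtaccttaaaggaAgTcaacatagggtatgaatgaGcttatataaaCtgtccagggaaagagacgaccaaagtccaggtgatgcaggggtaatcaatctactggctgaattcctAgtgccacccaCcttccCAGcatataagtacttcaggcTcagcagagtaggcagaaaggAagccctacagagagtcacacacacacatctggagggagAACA
Cyp3a11: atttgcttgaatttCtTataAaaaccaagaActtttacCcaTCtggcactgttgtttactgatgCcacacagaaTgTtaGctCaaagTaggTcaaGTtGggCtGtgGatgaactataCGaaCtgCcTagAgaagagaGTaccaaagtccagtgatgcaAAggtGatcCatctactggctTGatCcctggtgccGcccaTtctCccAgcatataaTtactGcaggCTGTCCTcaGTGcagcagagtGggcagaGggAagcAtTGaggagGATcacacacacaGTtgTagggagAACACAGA

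Over the aligned bases, the Cyp3a41a window was 99.7% identical to that of Cyp3a41b, 94.3% to Cyp3a44, 94.6% to Cyp3a16 and 81.5% to Cyp3a11. The windows of Cyp3a25 and Cyp3a59 were 96.3% identical to each other. Both strands of all 8 windows were searched for fixed motifs. No window held the hexamer AGTTCA or AGGTCA as a direct repeat with 3 bases between copies, AGTTCA as an everted repeat with AGTTCA or AGGTCA at 6 bases, or AGGTCA as an inverted repeat with 1 base between, the form bound by FXR. Neither the D-box TTATGTAA nor the STAT5 motif TTCNNNGAA was found in any of them. The repeats were present in at most 0.00913% of 32851 promoter windows. TTCNNNGAA was present in 8.30% of those windows and TTATGTAA in 0.938%. The hexamer AGTTCA alone, which the repeats contain, was present once in each of Cyp3a11, Cyp3a41a and Cyp3a41b, and in 14.0% of all windows. The hexamer AGGTCA was present once in Cyp3a11 and Cyp3a44 and at 2 places in Cyp3a25 and Cyp3a59, and in 16.3% of all windows. A match is a description of these letters only.

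The transcripts of the family overlap in sequence, which bears on how reads can be assigned. In GENCODE M21, 90.8% of the 100-base windows of Cyp3a41a and 88.2% of those of Cyp3a41b occur in another gene, nearly all in each other. For 50-base windows the shares were 98.6% and 93.5%. Cyp3a25 and Cyp3a59 shared 6.05% and 5.61% of their 100-base windows with each other. Cyp3a44 shared 5.37% of its own with Cyp3a11, Cyp3a41a or Cyp3a63-ps. The 100-base share was 0.312% for Cyp3a11, 0.123% for Cyp3a16 and 0 for Cyp3a13. At 50 bases it was 14.8% for Cyp3a11, 10.7% for Cyp3a16, 26.8% for Cyp3a25, 26.5% for Cyp3a44, 28.0% for Cyp3a59 and 0 for Cyp3a13. The sources used here do not give read length or the handling of reads with several matches, so the split between Cyp3a41a and Cyp3a41b is uncertain. Summed as 1 feature, Cyp3a41a and Cyp3a41b had a log2 fold change of 0.26 ± 0.61 (SE; limma adjusted p = 0.955).

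**Figure D1:**
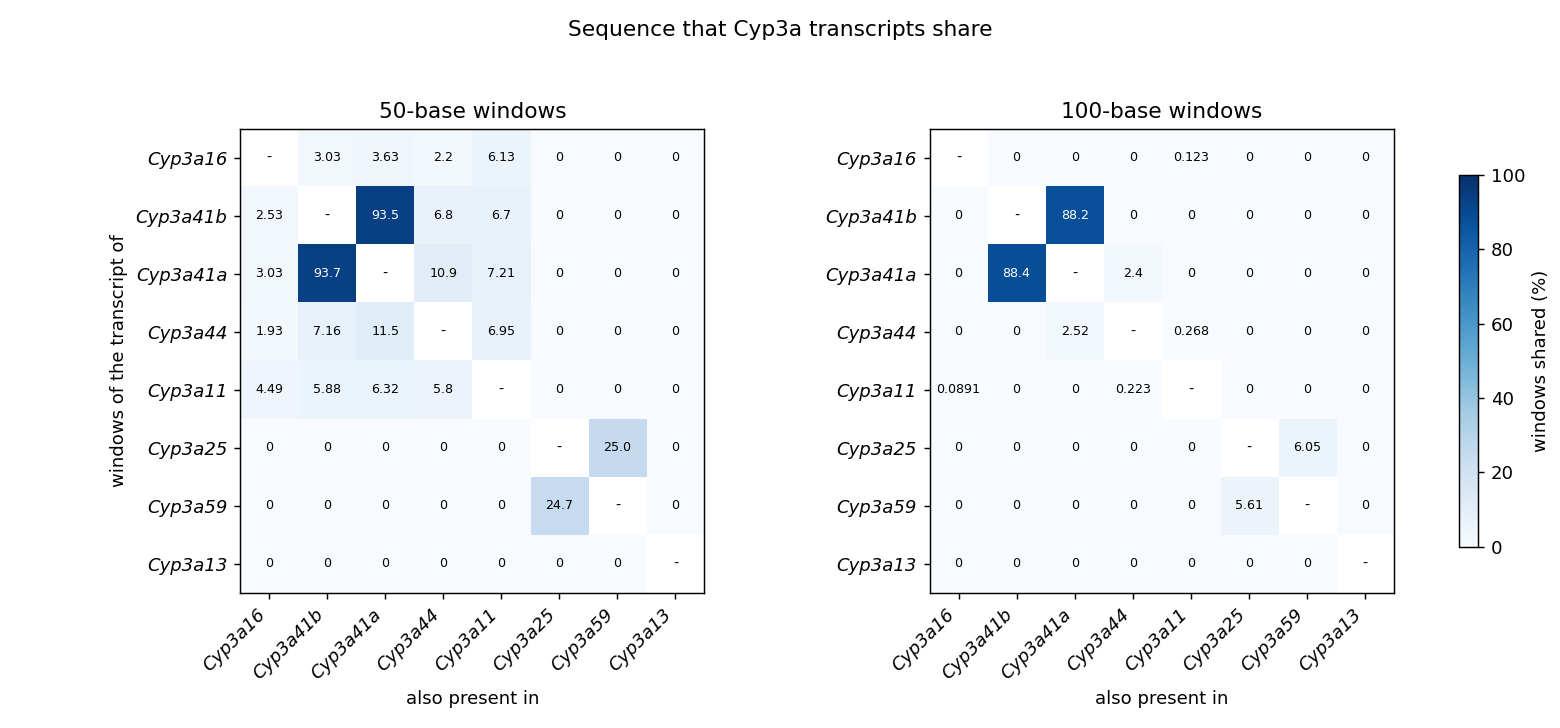
Percent of the 50-base (left) and 100-base (right) windows of each member's GENCODE transcript (rows) that also occur in the transcripts of each other member (columns); darker cells are higher shares. Cyp3a41a and Cyp3a41b share most of their windows, Cyp3a25 and Cyp3a59 share some, and Cyp3a13 shares none.

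Levels between genes are compared as normalized count per 1000 bases of the length in the table. Over all 12 libraries Cyp3a41a was highest, at 16847 per 1000 bases, followed by Cyp3a11 at 10916 and Cyp3a25 at 8257. Cyp3a44 at 2003, Cyp3a16 at 1663, Cyp3a41b at 1201 and Cyp3a13 at 1125 came next, and Cyp3a59 was lowest at 492. The order of the means of the 4 above it differed between the groups, which was not tested. In VPA_OCA, Cyp3a44 (1964) was above Cyp3a16 (1055), and Cyp3a13 (988) above Cyp3a41b (914). In VPA, Cyp3a16 (2270 ± 1548) was above Cyp3a44 (2042 ± 1405), and Cyp3a41b (1488 ± 923) above Cyp3a13 (1262 ± 202), with wide overlap (SD, n = 6 each). These VPA means include replicate 5. Without it, the mean shares of the family's level were 5.10% for Cyp3a16, 4.61% for Cyp3a44, 3.57% for Cyp3a41b and 2.53% for Cyp3a13. In VPA_OCA livers the SD ranges of Cyp3a11, at 10139 ± 3784 per 1000 bases, and Cyp3a25, at 7956 ± 2155, overlapped (SD, n = 6 each). So did those of Cyp3a16 at 1055 ± 247, Cyp3a13 at 988 ± 217 and Cyp3a41b at 914 ± 265. All were measured in the same livers, so the SDs do not measure the difference between genes, which was not tested. Within VPA_OCA libraries, Cyp3a11 was below Cyp3a25 only in replicate 4, at 18.6% against 19.1% of the family's level. With GENCODE transcript lengths the order over all libraries was the same, but Cyp3a25 measured 5165 per 1000 bases, since its length is 2000 bases there and 1251 in the table. On that scale Cyp3a11 and Cyp3a25 were further apart in VPA_OCA livers, at 11129 ± 4154 and 4976.5 ± 1348 per 1000 bases (SD, n = 6 each), without overlap of the SD ranges. The 8 genes together took 0.282% to 0.496% of the normalized counts of VPA_OCA libraries and 0.165% to 0.681% of those of VPA libraries, the lowest VPA value being that of replicate 5.

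No member passed the test for a difference between VPA_OCA and VPA: 0 of 8 had an adjusted p under 0.05 by limma over 19006 genes, against a background of 0.721% of all genes tested (0.442% higher and 0.279% lower in VPA_OCA). In no member did the values of the groups stay apart, against 1.44% of all genes. At an unadjusted p under 0.05, 1 member (Cyp3a13) and 1815 genes in all passed. The authors' deposited table, whose threshold is passed by 5.57% of its 12517 present genes, called 1 member, Cyp3a13, with an adjusted p of 0.0416. In that table Cyp3a59 had an adjusted p of 0.0643, and the other 6 members lay between 0.354 and 0.960. The table gives no SD or n.

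**Figure D2:**
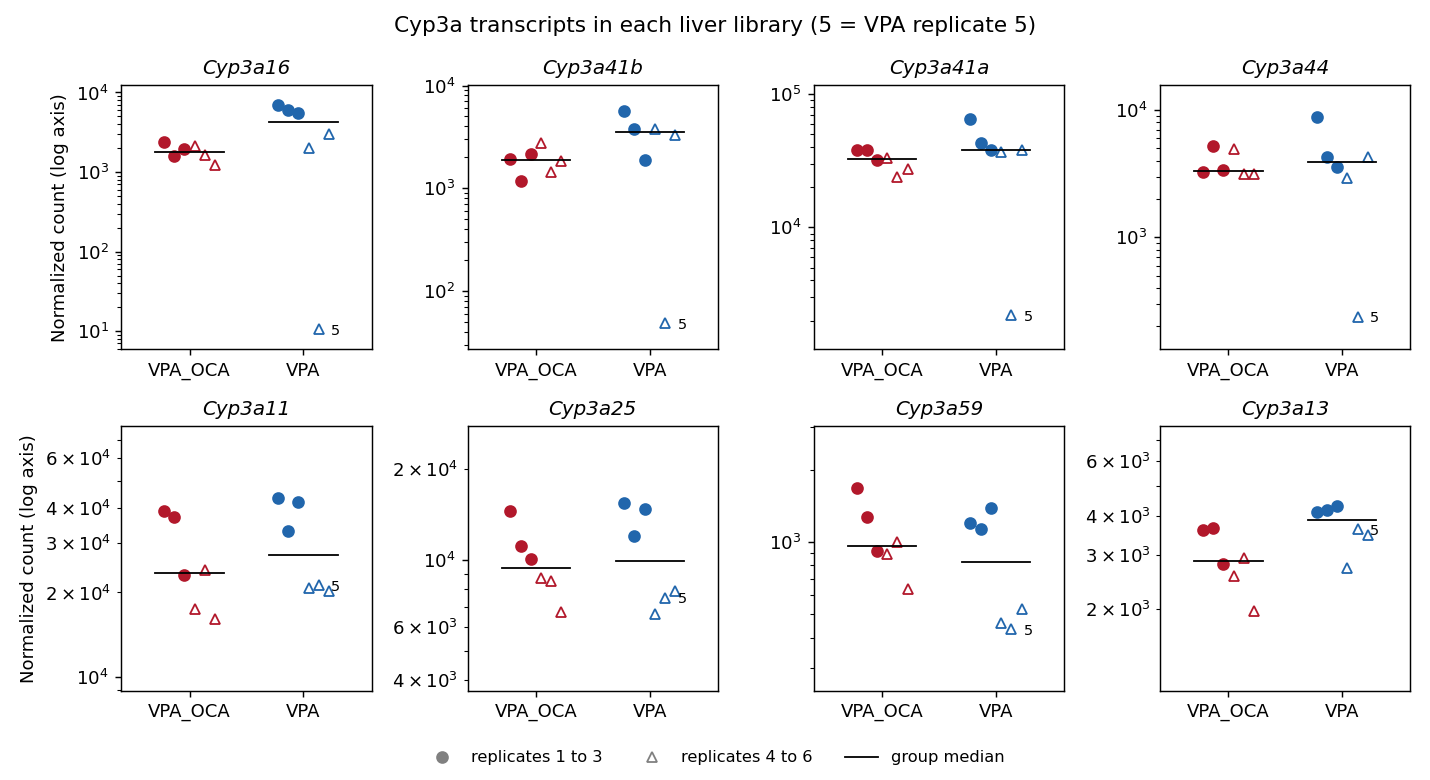
Normalized counts of the 8 members (log axes) in each library, with VPA_OCA (red) left of VPA (blue), filled circles for replicate numbers 1 to 3, open triangles for 4 to 6, and lines at group medians. VPA replicate 5, marked 5, is far below the other libraries in Cyp3a16, Cyp3a41b, Cyp3a41a and Cyp3a44, and within the range of the others or near it in the lower row.

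Cyp3a11, the main drug-induced form, ranged from 16110 to 39000 normalized counts in VPA_OCA (median 23510) and from 20240 to 43390 in VPA (median 27085). The groups overlapped almost entirely, and in both the numbers 1 to 3 were on the whole higher than 4 to 6. Its means were 26087 ± 9737 in VPA_OCA and 30088 ± 10861 in VPA (SD, n = 6 each). The log2 fold change was -0.21 ± 0.26 (SE; limma adjusted p = 0.881), with a 95% interval of -0.77 to 0.35.

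Cyp3a13, the form that is also intestinal, ranged from 1971 to 3651 in VPA_OCA (median 2869) and from 2708 to 4313 in VPA (median 3867). Of the 6 VPA values, 3 lay above every VPA_OCA value, and these were replicates 1 to 3. Its means were 2921 ± 640 in VPA_OCA and 3732 ± 598 in VPA (SD, n = 6 each). The log2 fold change was -0.37 ± 0.15 (SE), 1.29-fold lower in VPA_OCA, with an interval of -0.69 to -0.04, but the limma adjusted p was 0.441. With the number set (1 to 3 or 4 to 6) as a term, where 2.13% of all genes passed and again no member, the adjusted p was 0.0913. Within numbers 1 to 3 it measured 3355 ± 475 in VPA_OCA and 4195 ± 105 in VPA, and within 4 to 6 it measured 2487 ± 484 in VPA_OCA and 3269 ± 491 in VPA (SD, n = 3 each). The 9 listed enterocyte markers summed to 15927 to 30546 in VPA_OCA and 10471 to 19637 in VPA, and 0 of the 5 that passed the filter passed the test. Nearly all of each sum was Apoa4 (12640 to 23890 in VPA_OCA, 8597 to 16440 in VPA) and Fabp2 (2653 to 6629 in VPA_OCA, 1518 to 3154 in VPA). Slc5a1 measured 20.8 to 77.8 over all libraries, and Vil1 and Muc2 were lower still. The sum thus describes mainly Apoa4 and Fabp2, and the share of enterocyte RNA was not tested. The defining markers, Lct, Sis, Alpi and Cdx2, did not pass the filter on low values, and 2 of the 9 were at 0 in every library.

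Cyp3a25, a liver form near Cyp3a11, ranged from 6740 to 14520 in VPA_OCA (median 9395) and from 6644 to 15420 in VPA (median 9947). The ranges were nearly the same. Its log2 fold change was -0.07 ± 0.23 (SE; limma adjusted p = 0.971), with an interval of -0.55 to 0.42.

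Cyp3a59, the plus-strand relative of Cyp3a25, ranged from 639.6 to 1682 in VPA_OCA (median 960) and from 433.5 to 1382 in VPA (median 826). In numbers 4 to 6 the values were 891.8, 1000 and 639.6 in VPA_OCA and 459.5, 433.5 and 525.2 in VPA, without overlap. In numbers 1 to 3 the groups overlapped. The share of all genes that stay apart with 3 libraries against 3 was not counted, and so few libraries can separate by chance. The log2 fold change over all libraries was 0.42 ± 0.31 (SE; limma adjusted p = 0.752). It was 0.02 ± 0.19 within numbers 1 to 3 (adjusted p = 0.980) and 0.81 ± 0.16 within 4 to 6 (adjusted p = 0.0731), where 0.500% of all genes passed. The difference between these, 0.79 ± 0.27, had a limma interaction p of 0.0115 before adjustment and of 0.495 after it, and 0.0105% of all genes passed that test. No member passed it.

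The values of the remaining 4 members hinged on VPA replicate 5. Cyp3a16 measured 2395, 1602, 1970, 2149, 1615 and 1217 normalized counts in VPA_OCA replicates 1 to 6, against 6908, 6036, 5574, 2023, 10.6 and 3015 in VPA replicates 1 to 6. All VPA_OCA values were alike, 4 VPA values lay above every one of them, and replicate 5 was almost without the transcript. Over all 12 libraries the log2 fold change was 0.16 ± 1.18 (SE; limma adjusted p = 0.988).

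Without VPA replicate 5, Cyp3a16 averaged 1825 ± 428 in VPA_OCA (SD, n = 6) and 4711 ± 2087 in VPA (SD, n = 5). Its log2 fold change was then -1.26 ± 0.28 (SE; limma adjusted p = 0.0644), and 0.700% of all genes passed in that fit. With the number set as a term as well, a choice made after the data were seen, it was -1.19 ± 0.20 (SE), 2.28-fold lower in VPA_OCA, with an adjusted p of 0.00520, where 2.10% of all genes passed. With the replicate number as a block and VPA replicate 5 left out, the adjusted p was 0.0364. VPA replicate 5 was set apart for its values in this gene and its neighbours. The p-values without it are therefore not independent of the values tested.

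The within-set values of Cyp3a16 differed in size. In numbers 1 to 3, Cyp3a16 averaged 1989 ± 397 in VPA_OCA and 6173 ± 677 in VPA (SD, n = 3 each), 3.13-fold lower in VPA_OCA. The log2 fold change there was -1.65 ± 0.15 (SE; limma adjusted p = 0.000457), and 0.637% of all genes passed. This set leaves out VPA replicates 4 to 6, whose values (2023, 10.6 and 3015) were the lowest of their group. The number sets were taken up with earlier results of these data known, so this p-value is not independent of them. In numbers 4 to 6 without VPA replicate 5, VPA_OCA averaged 1660 ± 468 (SD, n = 3) and the VPA values were 2023 and 3015. The log2 fold change was -0.61 ± 0.25 (SE; limma adjusted p = 0.453), where 0.221% of all genes passed. The difference between the sets was 1.04 ± 0.30 (SE), with an adjusted interaction p of 0.462 by limma, and 0.00534% of all genes passed.

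Cyp3a41b, the lower of the Cyp3a41 pair, measured 1940, 1188, 2164, 2736, 1437 and 1850 in VPA_OCA replicates 1 to 6, against 5630, 3814, 1888, 3755, 48.97 and 3292 in VPA replicates 1 to 6. As with Cyp3a16, 4 VPA values lay above every VPA_OCA value and replicate 5 lay far below them. Its log2 fold change was 0.09 ± 0.86 (SE; limma adjusted p = 0.992) over all libraries and -0.93 ± 0.25 (adjusted p = 0.137) without VPA replicate 5. With the number set as a term as well it was -0.94 ± 0.24, with an adjusted p of 0.0587. The count of Cyp3a41b as a percent of that of Cyp3a41a was 3.10% to 8.22% in VPA_OCA and 2.24% to 10.3% in VPA.

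Cyp3a41a, the most abundant member per length, measured 38210, 38300, 32300, 33300, 24030 and 27460 in VPA_OCA replicates 1 to 6, against 65090, 42610, 38160, 36520, 2189 and 38300 in VPA replicates 1 to 6. The highest and the lowest values were both VPA livers. Its log2 fold change was 0.28 ± 0.60 (SE; limma adjusted p = 0.948) over all libraries and -0.44 ± 0.18 (adjusted p = 0.428) without VPA replicate 5.

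Cyp3a44, the next gene along the chromosome, measured 3265, 5225, 3363, 4980, 3116 and 3168 in VPA_OCA replicates 1 to 6, against 8739, 4254, 3597, 2949, 237.5 and 4258 in VPA replicates 1 to 6. Apart from VPA replicates 1 and 5 the groups overlapped over most of their range. Its log2 fold change was 0.47 ± 0.61 (SE; limma adjusted p = 0.885) over all libraries and -0.23 ± 0.24 (adjusted p = 0.839) without VPA replicate 5.

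**Figure D3:**
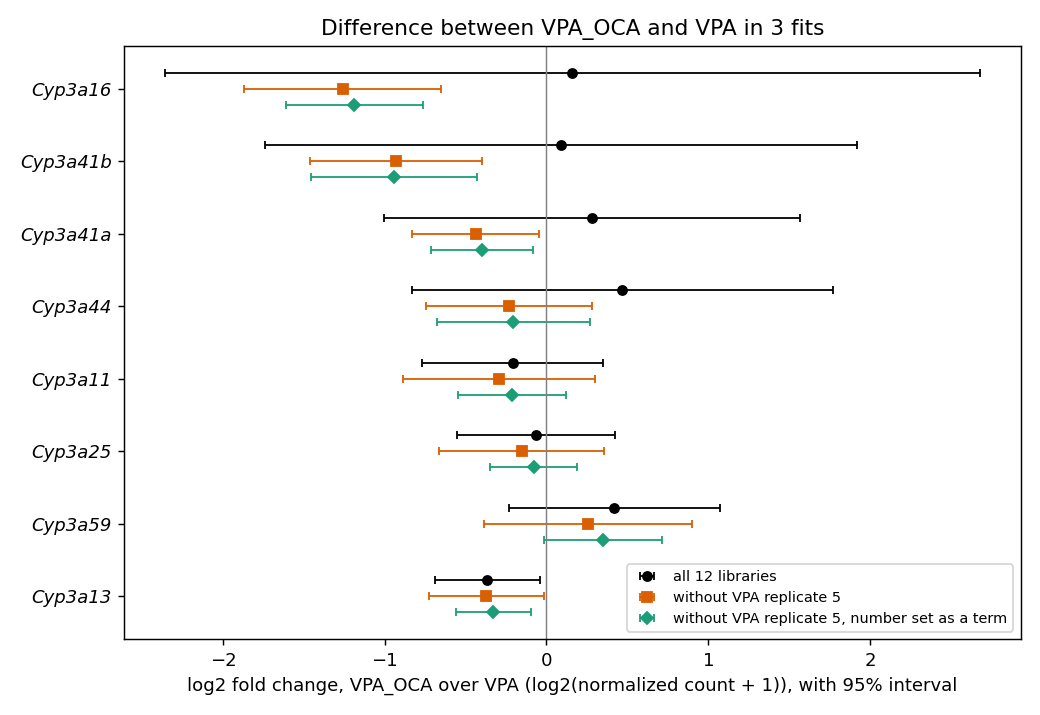
log2 fold changes of the 8 members, VPA_OCA over VPA, with 95% intervals, from limma on all 12 libraries (black), without VPA replicate 5 (orange) and without it with the number set as a term (green). The intervals of the upper 4 genes are wide with all libraries and narrow and lower without VPA replicate 5, from 0.16 to -1.26 for Cyp3a16, while the lower 4 move less.

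VPA replicate 5 was far lower in these 4 neighbours than in the rest of the cluster. Against the median of the other 5 VPA livers, Cyp3a16 was 481-fold lower in it, Cyp3a41b 75.2-fold, Cyp3a44 17.8-fold and Cyp3a41a 17.5-fold. Cyp3a59 was 2.60-fold, Cyp3a25 1.61-fold, Cyp3a11 1.56-fold and Cyp3a13 1.13-fold lower, and of these only Cyp3a59, at 433.5, lay below all other libraries, whose lowest was 459.5. Cyp3a16 had the lowest such ratio of the 9308 genes with a mean of at least 100, and Cyp3a41b, Cyp3a44 and Cyp3a41a stood at places 4, 7 and 8. Per 1000 bases, the 4 genes made up 7.19% of the family's level in VPA replicate 5, against 43.9% to 58.6% in VPA_OCA and 44.7% to 60.7% in the other VPA livers.

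**Figure D4:**
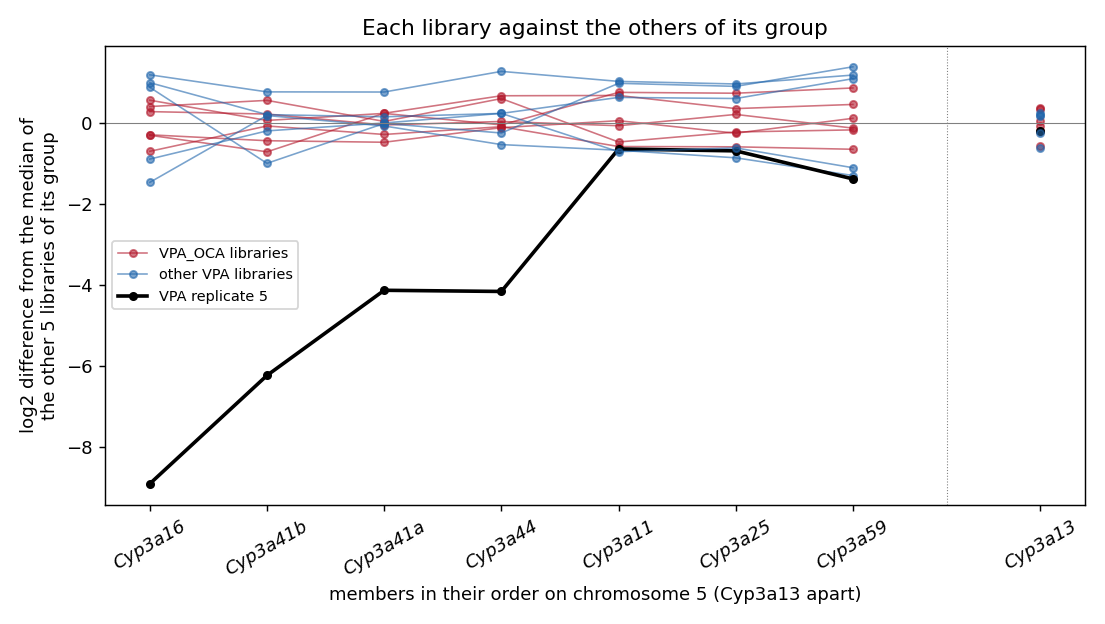
log2 difference of each library from the median of the other 5 libraries of its group, for the members in their order on chromosome 5, with Cyp3a13 apart. VPA replicate 5 (black) has values of -8.91 to -4.13 at the first 4 genes and joins the other libraries from Cyp3a11 on.

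The genes around the cluster did not share this. Zscan25, upstream of Cyp3a57, measured 87.3 in VPA replicate 5 against a median of 105.8 in the other VPA livers, and Rnf6, beyond Cyp3a59, 527.9 against 586.4. In all, 12 of the 9308 genes were lower in VPA replicate 5 than in every other library and at least 4-fold below the median of the other VPA livers, and 3 were higher by the same rule. Counted in the same way against the rest of their own group, the other libraries had 0 to 12 such genes below and 0 to 6 above. Besides the 4 members, the 12 were the hydroxysteroid sulfotransferases Sult2a1 (183.4 against a median of 12220), Sult2a2 (359.4 against 8989), Sult2a3 (22.9 against 2191) and Sult2a5 (6.93 against 613.9), the hydroxyacid oxidase Hao2 (98.7 against 617.7), and Gadd45g, Errfi1 and Dusp1. The first 5 are, like Cyp3a41 and Cyp3a44, known as female-predominant or steroid-handling liver genes.

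Sex-dependent liver genes were set beside the family, from lists chosen with earlier results of these data known. In VPA replicate 5, 7 of 23 female-predominant genes lay below all other libraries, where 5.81% of all genes tested did, and their median log2 difference from the other VPA livers was -0.50. Of 16 male-predominant genes, 6 lay above all other libraries, where 6.36% of all genes did, with a median of 0.98. Cyp2d9, a male-predominant P450, measured 2808 there against 537.1 to 980.4 in the other 11 libraries, and Hsd3b5, a male-predominant steroid reductase, 132 against 1.23 to 49.9. The transporter Slco1a1 measured 877.4 against 5.05 to 488.7. Not every gene followed: the female-predominant Cyp2b9 (10460) and Fmo1 (7644) were highest in the same library.

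**Figure D5:**
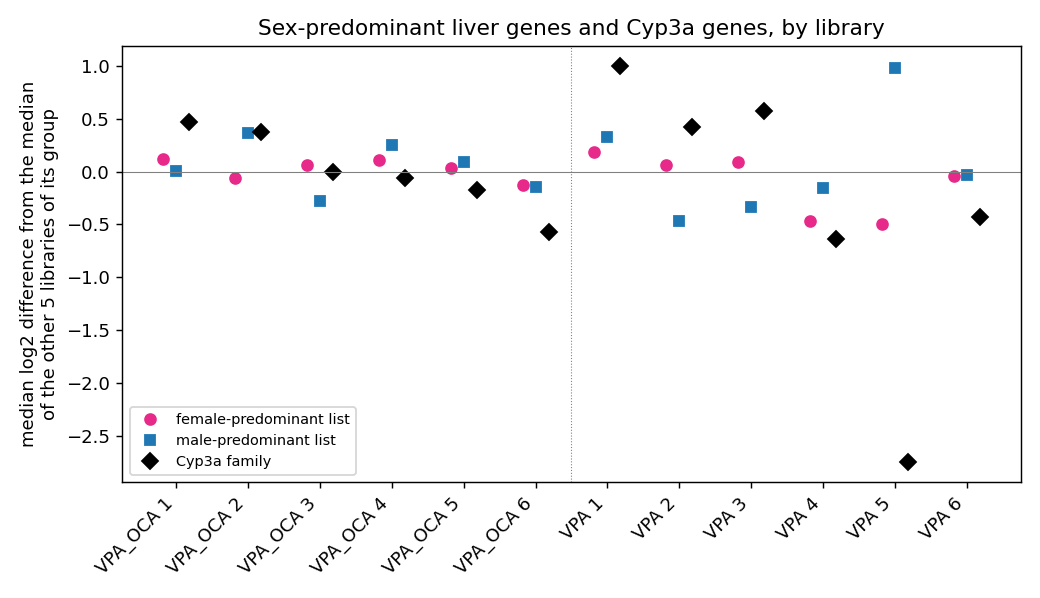
Median log2 difference of each library from the median of the other 5 libraries of its group, over the female-predominant list (pink circles), the male-predominant list (blue squares) and the 8 Cyp3a genes (black diamonds), VPA_OCA left of VPA. In VPA replicate 5 the Cyp3a median is -2.75, the female-predominant median -0.50 and the male-predominant median 0.98.

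Of 13 genes of growth hormone signalling, which sets sex-dependent liver expression, 3 lay below all other libraries in VPA replicate 5 (Cish, Onecut1 and Cux2) and 1 above (Bcl6), against 5.81% and 6.36% of all genes tested. Their median log2 difference from the other VPA livers was -0.11, and the other 9, among them Ghr, Jak2, Stat5b, Socs2 and Igf1, lay within the range of the other libraries. The repressor Bcl6 measured 460.3 against 57.2 to 164 in the other 11 libraries, and the female-predominant factor Cux2 527.9 against 775.9 to 2174. Cish, a target of growth hormone signalling, measured 232.9 against 260 to 857.3. Xist, transcribed from the inactive X chromosome of females, was 8215 to 16810 in all 12 libraries and the Y-linked Eif2s3y was 0 in all, so replicate 5 carried the labelled sex. The same library held skeletal muscle transcripts, with the 8 listed markers summing to 152, against 13.0 to 25.9 in VPA_OCA and 5.27 to 654 in the other VPA livers, with the highest in replicate 4, whose Cyp3a values were not low in this way. Its 7 adipocyte markers summed to 928, against 484 to 705 in VPA_OCA and 398 to 843 in the other VPA livers. Adipoq measured 20.8 in VPA replicate 5, against 0 to 10.4 elsewhere. The 10 pericentral markers summed to 226172 in VPA replicate 5, the highest of all libraries, of which Cyp2e1 alone was 160000. Of these 10, 3 (Cyp2e1, Cyp1a2 and Oat) lay above all other libraries, against 6.36% of all genes tested. The median log2 difference of the 10 from the other VPA livers was 0.12. The part of any of these in the Cyp3a values was not tested. These genes were chosen after their values were seen.

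The receptors and regulators that act on Cyp3a genes did not pass the test. Of 18 listed, 0 rose and 0 fell, with a median log2 fold change of -0.14, against -0.00 over all genes tested. PXR (Nr1i2) averaged 2045 ± 545 in VPA_OCA and 2280 ± 312 in VPA, and the drug-sensing receptor CAR (Nr1i3) 10386 ± 3939 in VPA_OCA and 11256 ± 3698 in VPA (SD, n = 6 each; limma adjusted p = 0.792 and 0.943). Their shared partner Rxra averaged 6553 ± 1026 in VPA_OCA and 7948 ± 954 in VPA (adjusted p = 0.449). FXR itself (Nr1h4) averaged 2250 ± 372 in VPA_OCA and 2746 ± 556 in VPA (adjusted p = 0.565). Its target Nr0b2, which encodes the repressor SHP, averaged 849 ± 460 in VPA_OCA and 451 ± 167 in VPA, with a log2 fold change of 0.77 ± 0.39 (SE; adjusted p = 0.570).

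The 3 regulators with the smallest p were the hepatocyte factors Onecut1, Foxa3 and Hnf4a. Onecut1 averaged 560 ± 191 in VPA_OCA and 313 ± 81.2 in VPA, a log2 fold change of 0.80 ± 0.22 (SE; limma adjusted p = 0.143, or 0.0318 with the number set as a term). Foxa3 had a log2 fold change of -0.41 (adjusted p = 0.358) and Hnf4a one of -0.23 (adjusted p = 0.431).

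The enzymes that supply electrons and heme to the P450s did not pass either, at 0 of 14 in each direction. P450 reductase (Por) averaged 10371 ± 2258 in VPA_OCA and 11589.5 ± 1806 in VPA (SD, n = 6 each; limma adjusted p = 0.812), and cytochrome b5 (Cyb5a) 24140 ± 8488 in VPA_OCA and 22910 ± 5071 in VPA (adjusted p = 0.983). The smallest p-values belonged to the heme synthesis gene Cpox, Cyb5b and the heme synthesis gene Alas1, with log2 fold changes of -0.26, -0.17 and 0.27 and adjusted p of 0.609, 0.742 and 0.754.

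Among 31 genes known to respond to PXR or CAR outside the family, 1 rose and 1 fell, where 0.442% of all genes rose and 0.279% fell. The median log2 fold change of the 31 was 0.04. The drug efflux pump Abcb1a averaged 703 ± 66.3 in VPA_OCA and 274 ± 47.6 in VPA (SD, n = 6 each), with a log2 fold change of 1.37 ± 0.12 (SE; limma adjusted p = 2.45e-05). Its values did not overlap, at 620.6 to 801.3 in VPA_OCA and 207.3 to 344.1 in VPA. The CAR target Cyp2b9 averaged 6372 ± 721 in VPA_OCA and 9553 ± 1062 in VPA, with a log2 fold change of -0.58 (adjusted p = 0.0144). Cyp2b10, the gene most used as a sign of CAR activity, was looked at after its values were seen. It measured 12.5 to 43.9 in VPA_OCA and 51.0 to 375 in VPA, without overlap, with an adjusted p of 0.0777, or 0.00368 with the number set as a term.

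Between the groups, most of the listed sex-dependent genes did not pass the test. Of 23 female-predominant genes 1 rose, 3 fell and 19 did not pass, where 0.442% of all genes rose and 0.279% fell, with a median log2 fold change of -0.18. The estrogen sulfotransferase Sult1e1 rose 3.38-fold, averaging 132 ± 60.4 in VPA_OCA and 38.0 ± 14.4 in VPA (SD, n = 6 each; limma adjusted p = 0.0102). The fatty acid hydroxylase Cyp4a14 was 3.09-fold lower in VPA_OCA (adjusted p = 0.0131), the monooxygenase Fmo2 1.92-fold lower (adjusted p = 0.0368), and Cyp2b9 is given above. Without VPA replicate 5, 1 of the 23 rose and 4 fell, where 0.700% of all genes passed in either direction, and the median of the 23 was -0.46. Fmo2 then had an adjusted p of 0.0623, while Hao2 (log2 fold change -1.65, adjusted p = 0.00297) and Cyp17a1 (-0.54, adjusted p = 0.0372) passed. Of 16 male-predominant genes, 0 rose, 1 fell and 15 did not pass, with a median log2 fold change of 0.09. The gene that fell, Susd4, averaged 8.54 ± 1.78 in VPA_OCA and 32.6 ± 24.8 in VPA (adjusted p = 0.0334), its VPA range being widened by the 82.1 of replicate 5. Without VPA replicate 5, 1 rose and 1 fell and the median was 0.23: Nudt7 rose (log2 fold change 0.67, limma adjusted p = 0.0365, against 0.139 with all libraries) and Susd4 fell (-1.30, adjusted p = 0.0201).

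In the remaining lists none passed in either direction. These were 13 genes of growth hormone signalling, led by Onecut1, Stat5b (adjusted p = 0.421) and Cish (0.509), and 12 clock output genes, led by Nfil3 (0.369), Per3 (0.524) and Hlf (0.536). Of 11 other enzymes of bile acid and steroid clearance, the smallest p-values were those of Srd5a1, Cyp2c70 and Akr1d1. The steroid reductase Srd5a1 averaged 1534 ± 312 in VPA_OCA and 951 ± 358 in VPA (SD, n = 6 each; limma adjusted p = 0.150, or 0.00191 with the number set as a term).

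Cyp3a11 is known as a gene of hepatocytes near the central vein. Of 10 pericentral markers, 2 fell (Slc1a2, 1.65-fold lower, adjusted p = 0.0161, and Rhbg, 1.64-fold lower, adjusted p = 0.0333), and of 10 periportal markers 1 rose (Cdh1, 2.21-fold, limma adjusted p = 0.0368). Over all genes tested, 0.279% fell and 0.442% rose. Without VPA replicate 5 the adjusted p was 0.0689 for Rhbg and 0.0606 for Cdh1. The pericentral markers summed to 95019 to 174437 in VPA_OCA and 123767 to 226172 in VPA. The largest part of each sum was Cyp2e1, at 52010 to 111300 in VPA_OCA and 74280 to 160000 in VPA. Their part in the Cyp3a values was not tested. Genes of the other 8 cell type lists did not pass.

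With all libraries, the members varied from liver to liver in 2 sets. Over the 12 libraries, after subtracting the mean of each group and number set, the log2 values of Cyp3a41a and Cyp3a44 had a Pearson r of 0.98, and of 0.88 without VPA replicate 5. Cyp3a16 and Cyp3a41a had an r of 0.98 that became 0.44 without it. On the other side, Cyp3a25 and Cyp3a59 had an r of 0.85 (0.88 without VPA replicate 5), Cyp3a11 and Cyp3a59 of 0.81 (0.84) and Cyp3a11 and Cyp3a25 of 0.72 (0.71). Cyp3a16 and Cyp3a11 had an r of -0.04 (0.10). The sets were less distinct without VPA replicate 5, where Cyp3a16 and Cyp3a25 had an r of 0.71, against 0.03 with it. Members of a library share its depth and scaling, and Cyp3a41a and Cyp3a41b share sequence.

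Outside the family, the 3 genes most like each member on the same measure, among the 9308, were found for description. For Cyp3a16 they were Sult2a1 (r = 0.99), Sult2a2 (0.97) and Nt5e (0.96), but without VPA replicate 5 these were 0.64, 0.34 and 0.16. Cyp3a41a and Cyp3a41b had the same 3 genes, and Cyp3a44 had Sult2a1 (0.92), Yipf6 (0.90) and Acer3 (0.89). Without VPA replicate 5, the r with Sult2a1 was 0.34 for Cyp3a41a, 0.19 for Cyp3a41b and 0.14 for Cyp3a44. The likeness to the sulfotransferases thus rests largely on 1 library, though less so for Cyp3a16 and Sult2a1. Cyp3a11 was most like Zfp68 (0.96), Irgm1 (0.95) and Dhx58 (0.94), with the last 2 known as interferon-induced genes, and without VPA replicate 5 these r were 0.98, 0.96 and 0.95. Cyp3a13 was most like Clcn4 (0.98), Gss (0.97) and Ndrg2 (0.96), Cyp3a25 like Snrnp48 (0.97), Upf2 (0.95) and Slc22a5 (0.94), and Cyp3a59 like Acad8 (0.93), Mir22hg (0.93) and Sat2 (0.91). The highest r among 9308 genes over 12 libraries can be this high by selection alone. The r without VPA replicate 5 is for the same selected genes, and no association was tested.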

How the data were processed

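RNA of 12 livers (6 VPA_OCA, 6 VPA) was analysed from 1 deposited table. RNA was extracted with Trizol and sequenced from TruSeq libraries, per the labels' protocols. The authors used edgeR (no version) and GRCm38.p5, per the submitters' processing notes. The sources used here do not give the aligner, counter, strand or read length. The deposited normalized counts, a signal per gene, hold read counts that the authors scaled by a factor for each library, per the file headers and the values. The authors' FPKM divide these by gene length and column total and entered 1 alternative. The authors' p-values and adjusted p-values are quoted as theirs, and their GC fraction per gene was not used further. Cells with a misread decimal mark (238 p-values, 88 adjusted p-values, 89 normalized counts, 129 FPKM) were divided by 1000, and 26 symbols turned into dates were restored by gene ID. All table columns of per-sample values were mapped by title, with 0 left unused. Of low values, 80.3% to 84.9% per library lay within 0.1 of whole multiples of the commonest low value, so whole reads were not recovered and no count model was used. GENCODE M21 held 34903 of the 34986 gene IDs, and 33093 had the same start and end, the 8 members among them. Depth is estimated, so no counting interval is given.

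Values were compared as log2(normalized count + 1), a scale on which folds of low genes come out too small, with limma 3.58.1 in R 4.3.3 (intensity trend, group as the only term, Benjamini-Hochberg adjustment over 19006 genes, threshold 0.05). The fit was tested on simulated data first. Alternatives were other filters, scalings, pseudocounts (0.1 and 5), priors, weights and thresholds, the replicate number as a block, terms or fits by number set, and each library left out. Further fits without VPA replicate 5 were added after the data were seen. Same-numbered libraries of the groups had correlated deviations from their group means (r = 0.478, 0.150, 0.327, 0.200, 0.364 and 0.372 for numbers 1 to 6, over 11481 genes with a mean log2 value above 5), all above 0.1, so the number was fitted as a block in an alternative; the fit behind the results given has no block, and the labels do not say that the numbers pair animals. The block raised the genes that passed to 210, from 137, and no member passed in it with all libraries.

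Named were all members, the receptors and electron donors Nr1i2, Nr1i3, Rxra, Nr1h4, Nr0b2, Por and Cyb5a, list members past the threshold or otherwise the 3 with the smallest p, and the 3 genes most like each member. Members and lists were chosen with earlier results of these data known. Sequences were compared with Biopython 1.88 and figures drawn with matplotlib 3.10.9. Protein sequences were not used here.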

Additional observations from a re-analysis of the deposited data

Results flagged for a closer look

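In 4 members 1 library lay far from the other 5 of its group on the log2 scale, by Dixon's test with a critical value of 0.625. All 4 flags were VPA replicate 5, among 60 groups of values examined, where chance flags about 1 in 20. Cyp3a16 measured 10.6 normalized counts there, with a gap to the next library of 0.808 of the group's range. Cyp3a41a measured 2189 (0.830), Cyp3a41b 48.97 (0.769) and Cyp3a44 237.5 (0.698). The other 5 VPA libraries held 2023 to 6908 of Cyp3a16, 36520 to 65090 of Cyp3a41a, 1888 to 5630 of Cyp3a41b and 2949 to 8739 of Cyp3a44. On the scale of the normalized counts themselves none of these groups was past the critical value. The cause was not tested.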

How the results depend on the processing

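Cyp3a11, Cyp3a13 and Cyp3a59 kept their direction and stayed short of the threshold in each of 34 alternatives. Signs of the other 5 changed, and the cause was not tested beyond the libraries named. Leaving out 1 replicate at a time gave log2 fold changes of -1.26 to 0.58 for Cyp3a16, -0.44 to 0.54 for Cyp3a41a, -0.93 to 0.43 for Cyp3a41b, -0.23 to 0.81 for Cyp3a44 and -0.19 to 0.055 for Cyp3a25. The lowest values of the first 4 are those without VPA replicate 5; Cyp3a41b was also negative without VPA_OCA replicate 4 (-0.03), and Cyp3a25 was positive without VPA_OCA replicate 6 (0.038), VPA replicate 1 (0.055) or VPA replicate 3 (0.043). Within numbers 1 to 3 the values were -1.65 for Cyp3a16, -0.39 for Cyp3a41a, -1.01 for Cyp3a41b and -0.41 for Cyp3a44. Without both VPA libraries with muscle transcripts, numbers 4 and 5, they were -1.53 (adjusted p = 0.00649 by limma), -0.50, -0.90 and -0.38. With the number set as a term and VPA replicate 5 left out they were -1.19, -0.40, -0.94 and -0.20. Within numbers 4 to 6 without that library they were -0.61 for Cyp3a16, -0.42 for Cyp3a41a, -0.86 for Cyp3a41b and 0.048 for Cyp3a44; Cyp3a25 was 0.12 within numbers 4 to 6 and 0.13 there without that library. The count of members past the threshold, 0 in all, was 1 (Cyp3a16) within numbers 1 to 3, without VPA libraries 4 and 5, and in both the number-set and block fits without VPA replicate 5. VPA libraries 4 and 5 held the lowest Cyp3a16 values of their group, 2023 and 10.6. Leaving out both, as the fit within numbers 1 to 3 also does, or number 5 alone, raises the VPA mean of Cyp3a16. These calls are therefore not independent of the values tested.

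With the replicate number as a block, 210 genes passed against 137, and 10 pathway genes against 6, and no member's call changed. The block without VPA replicate 5 gave -1.23 for Cyp3a16, -0.36 for Cyp3a41a, -0.86 for Cyp3a41b and -0.18 for Cyp3a44. Whether animals were paired cannot be told from these data. The number sets differed in both groups, and only numbers 1 and 3 correlated best with their own number.

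Genes past the threshold numbered 404 with the number set as a term, 394 with it and without VPA replicate 5, 42 within numbers 4 to 6 without it, 223 at a threshold of 0.1 and 62 at 0.01, and 93 to 148 with 1 replicate left out. Pathway genes past the threshold, 6 in all, numbered 3 without the intensity trend, 14 and 19 with the number set as a term (with and without VPA replicate 5), 10 within numbers 1 to 3, 3 within 4 to 6, 1 at a threshold of 0.01, and 4 to 8 with 1 replicate left out. Cell type markers past it, 3 in all, numbered 0 without the trend, 5 with array weights, 9 and 7 with the number set as a term (with and without VPA replicate 5), 1 without VPA libraries 4 and 5, 1 within numbers 4 to 6 without VPA replicate 5, 0 at 0.01, and 0 to 4 with 1 replicate left out. With GENCODE lengths Cyp3a25 measured 5165 normalized counts per 1000 bases, not 8257.

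What depth limits was not measured, since depth is only estimated. Without VPA replicate 5 the intervals of Cyp3a16, Cyp3a41a, Cyp3a41b and Cyp3a44 were narrower. The split of reads between Cyp3a41a and Cyp3a41b cannot be checked from the table.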
